A study of Mus musculus with 6 samples.

Results

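The cyclin-dependent kinase inhibitors of the mouse are *Cdkn2a*, *Cdkn2b*, *Cdkn2c* and *Cdkn2d*, which form the INK4 family, and *Cdkn1a*, *Cdkn1b* and *Cdkn1c*, which form the CIP/KIP family. Their transcription was examined in nuclear RNA of embryonic stem (ES) cells. The members were taken by gene symbol from RefSeq transcript identifiers, and all 7 genes were found among the 19338 gene symbols of the deposited table. They account for 9 of its 20633 transcript entries, because *Cdkn2a* and *Cdkn1a* have a pair of entries each. The entry with the higher mean was kept for these genes, and the other entry is described beside it.

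The cells were *Rybp* fl/fl;*Yaf2* -/- ES cells, which carry loxP sites around *Rybp* and a Cre recombinase that tamoxifen activates. *Yaf2*, the paralogue of *Rybp*, had been removed in all of them with CRISPR/Cas9 before the experiment, and the line was expanded from isolated colonies. Nuclear RNA came from 3 untreated libraries (UNT) and from 3 libraries of cells kept for 96 hr in 4-hydroxytamoxifen (OHT) at 800 nM, all grown with serum and leukemia-inhibitory factor. No group received OHT without the floxed *Rybp* allele, so a response to OHT or Cre and the loss of RYBP cannot be told apart in this design. The value described here is the base mean, the authors' average of normalised read counts over all 6 libraries. It therefore holds UNT and OHT libraries together, carries no error, and gives no difference between them. The comparison of OHT with UNT was not analysed here, and neither depth nor spread between replicates is known.

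INK4 proteins bind CDK4 and CDK6 and keep them from their D-type cyclins, while CIP/KIP proteins bind complexes of cyclins with their kinases, CDK2 complexes above all. Both families delay the phosphorylation of the retinoblastoma protein and thereby entry into S phase. ES cells cycle quickly and have a short G1 phase. *Cdkn2a* is a classic target of Polycomb repression, in which PRC1 ubiquitylates histone H2A and PRC2 methylates histone H3, and RYBP is a subunit of variant PRC1 complexes.

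*Cdkn2a* encodes a pair of unrelated proteins from separate first exons. The INK4a transcript gives p16, an inhibitor of CDK4 and CDK6. The ARF transcript, which starts further upstream, gives p19ARF, which holds back MDM2 and so stabilises p53. The table has an entry for each transcript, and the junctions of their first exons with the shared second exon are shown because they differ between the spliced transcripts. Lower case marks the last 24 bases of exon 1 and capitals mark the first 24 bases of exon 2, both in the sense of the transcript (GENCODE vM21 transcript sequences, minus strand of chromosome 4, mm10).

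INK4a: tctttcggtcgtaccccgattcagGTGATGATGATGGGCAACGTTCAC

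ARF: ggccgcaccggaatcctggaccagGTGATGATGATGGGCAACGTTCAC

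The capitals are the same in both transcripts and begin at position 89276985. The INK4a exon 1 ends at position 89281986 after 126 coding bases, which leaves 0 bases over after whole codons. The ARF exon 1 ends at position 89294334 after 190 coding bases, which leaves 1 base over. Exon 2, of 341 bases, is thus read in different frames, and a read within it cannot be assigned to one transcript or the other.

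The ARF entry (NM_009877, chr4:89274541-89294653, minus strand, mm10) has a base mean of 182.6, at percentile 42.9 of the 19198 entries with a base mean above 0. The INK4a entry (NM_001040654, chr4:89274471-89282192, minus strand) has a base mean of 85.5, at percentile 34.9. Both entries are thus below the median base mean of 306.7, and the ARF entry is 2.14 times the INK4a entry. The spans are nested, as 99.1% of the INK4a span lies inside the ARF span, so the base means share reads and are not independent. Divided by the length from start to end of the transcript, the ARF entry has 9.08 and the INK4a entry 11.1 normalised counts per kb, and the order of the levels turns. If reads were counted over whole spans, the 12461 bp only in ARF would hold at least the difference of 97.1 between the base means. That is at least 7.79 normalised counts per kb, because reads in the end of INK4a that lies outside ARF would lower the difference.

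**Figure D1:**
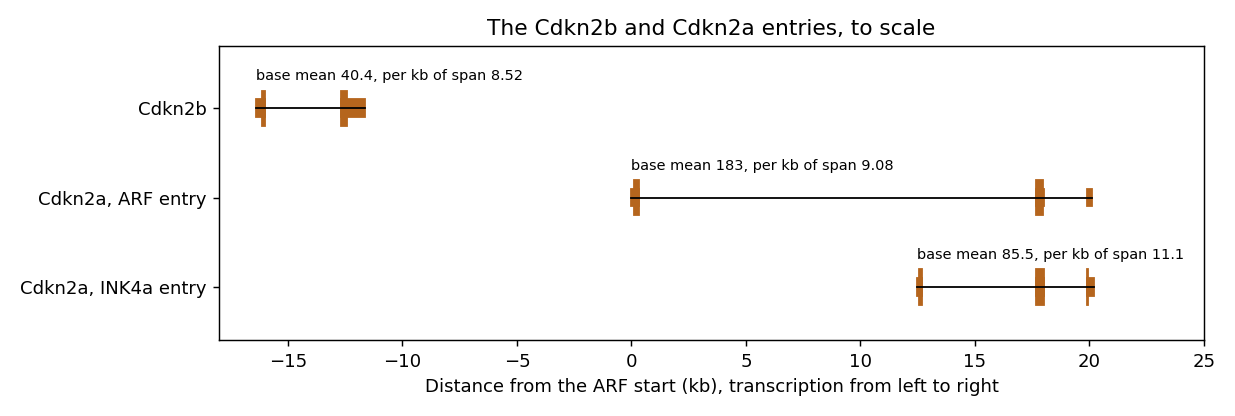
Map of the *Cdkn2b* and *Cdkn2a* entries to scale, with distance from the ARF start in kb on the horizontal axis and transcription from left to right. Lines are transcript spans, low boxes are exons, high boxes are coding sequence, and the base mean is written above each entry. The INK4a entry sits almost wholly inside the ARF entry and shares its second exon, and the levels per kb of span lie between 8.52 and 11.1.

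The sources do not say whether reads in introns were counted, so levels are given both per kb of span and per kb of exons. The table itself bears on this scale. Pairs of overlapping entries of a gene were taken in which the entry with the longer span has the shorter exons. Both entries had a base mean of at least 10, and pairs with equal base means were left out. The entry with the longer span had the higher base mean in 361 of these 377 pairs (95.8%). *Cdkn1a* is such a pair. Its entry with the longer span (8723 bp, exons of 922 bp) has a base mean of 776.5, and the entry with the shorter span (6954 bp, exons of 1913 bp) has 733.2. The level per kb of span is therefore given first throughout, and percentiles on it are among the 18871 entries above 0 with an annotated length.

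Per kb of span, the INK4 genes lay below the median of all entries, with the exception of *Cdkn2d*. *Cdkn2a*, by its ARF entry, has 9.08 normalised counts per kb of span, at percentile 43.6 and 0.646 times the median of all entries, which is 14.0. *Cdkn2b*, which encodes p15 and lies 11646 bp upstream of ARF on the same strand (chr4:89306299-89311039), has a base mean of 40.4 and 8.52 normalised counts per kb of span, at percentile 42.7. The neighbouring genes thus have nearly the same level per kb of span, with a ratio of 1.07, although their base means differ 4.52-fold. On exon length *Cdkn2a* has 204.0 and *Cdkn2b* 29.1 normalised counts per kb, a ratio of 7.02, so the likeness of these genes depends on the length used.

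*Cdkn2c*, which encodes p18, has the lowest level of the members on each of the scales (chr4:109660876-109665372, minus strand). Its base mean of 11.1 lies at percentile 19.2, and its 2.47 normalised counts per kb of span lie at percentile 29.9. *Cdkn2d*, which encodes p19INK4d, a protein unrelated to p19ARF, is found at chr9:21288410-21291308 (minus strand). Its base mean of 88.8, at percentile 35.2, is below the median, but its span of 2899 bp is short, and its 30.6 normalised counts per kb of span lie at percentile 64.3. Per kb of exons *Cdkn2d* returns to percentile 41.2. *Cdkn2a* moves the other way, to percentile 59.4 per kb of exons, so which INK4 gene exceeds the median of all entries is set by the length chosen.

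**Figure D2:**
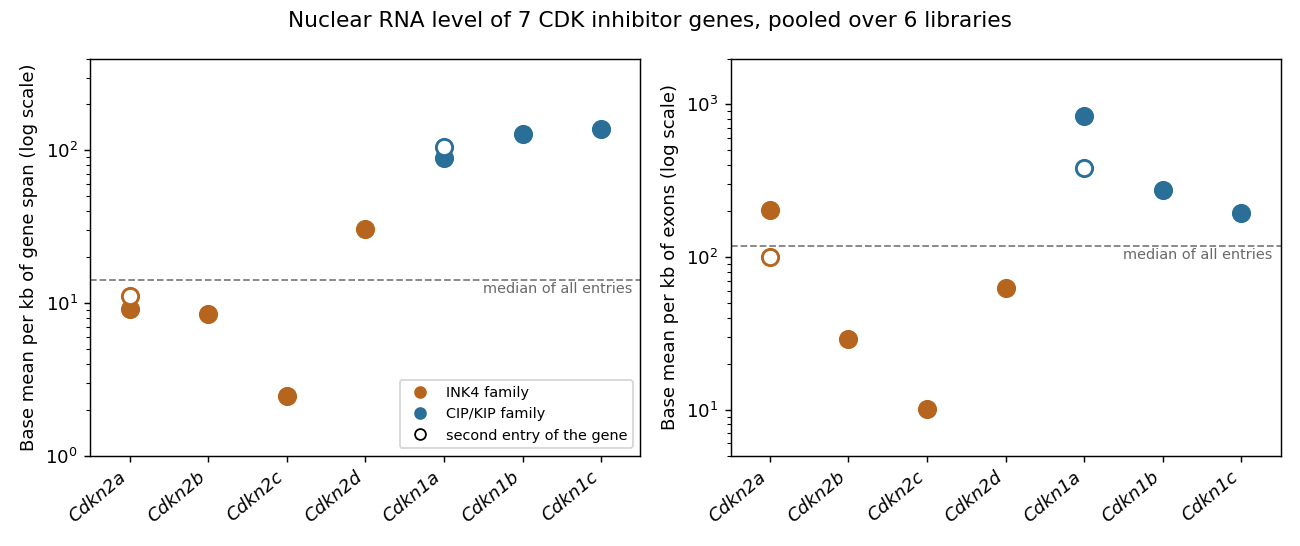
Base mean per kb of gene span (left) and per kb of exons (right), both on log axes, for the 7 genes, with INK4 genes in brown and CIP/KIP genes in blue. Filled circles are the kept entries, open circles the second entries of *Cdkn2a* and *Cdkn1a*, and the dashed line is the median of all entries. All CIP/KIP genes lie above the line on both scales, *Cdkn2d* only on the left and the kept *Cdkn2a* entry only on the right, and *Cdkn2c* is lowest on both.

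The 3 CIP/KIP genes lie above the median of all entries on each scale, by 6.34 to 9.85 times per kb of span. *Cdkn1c* is nearer to it on the other scales, at percentile 52.8 on the base mean and 58.6 per kb of exons. *Cdkn1a* encodes p21, through which p53 arrests the cell cycle, and its kept entry (NM_001111099) covers chr17:29090979-29099701 (plus strand). It has the highest base mean of the members, 776.5, at percentile 65.9, and 89.0 normalised counts per kb of span, at percentile 85.4. The other entry (NM_007669), which starts 2790 bp further downstream, reaches 105.4 per kb of span, at percentile 88.1. The base means of the *Cdkn1a* entries differ by a factor of 1.06, and their spans overlap, so they do not show which start is used.

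*Cdkn1b* encodes p27, which binds cyclin E with CDK2 and is removed by SKP2 and CKS1B as cells enter S phase. It covers chr6:134920401-134925513 (plus strand), with a base mean of 659.0 at percentile 62.9 and 128.9 normalised counts per kb of span at percentile 90.7. *Cdkn1c* encodes p57 and is an imprinted gene expressed from the maternal allele. It covers chr7:143458339-143460996 (minus strand), with a base mean of 367.9 at percentile 52.8. Its span of 2658 bp is the shortest of the members, and its 138.4 normalised counts per kb of span, at percentile 91.6, are the highest. Per kb of exons *Cdkn1c* has 194.9, at percentile 58.6, below *Cdkn1a* (842.2), *Cdkn1b* (275.4) and *Cdkn2a* (204.0).

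In order of level per kb of span the members are *Cdkn1c*, *Cdkn1b*, *Cdkn1a*, *Cdkn2d*, *Cdkn2a*, *Cdkn2b* and *Cdkn2c*, from 138.4 to 2.47 normalised counts, a 56.1-fold range. *Cdkn1c* exceeds *Cdkn1b* by a factor of 1.07 and *Cdkn1b* exceeds *Cdkn1a* by 1.45. Without a spread over libraries it is not known which neighbours in this order differ. The median of the CIP/KIP genes is 128.9 per kb of span (89.0 to 138.4) and that of the INK4 genes 8.80 (2.47 to 30.6), a ratio of 14.6. The same ratio is 10.2 on the base mean and 6.02 per kb of exons. On this scale and on the base mean the families do not overlap, whereas per kb of exons *Cdkn2a* exceeds *Cdkn1c* by a factor of 1.05. In all, 4 of the 7 genes lie above the median of all entries per kb of span, 3 of 3 CIP/KIP genes and 1 of 4 INK4 genes. This is a description of pooled values, and no test stands behind it.

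**Figure D3:**
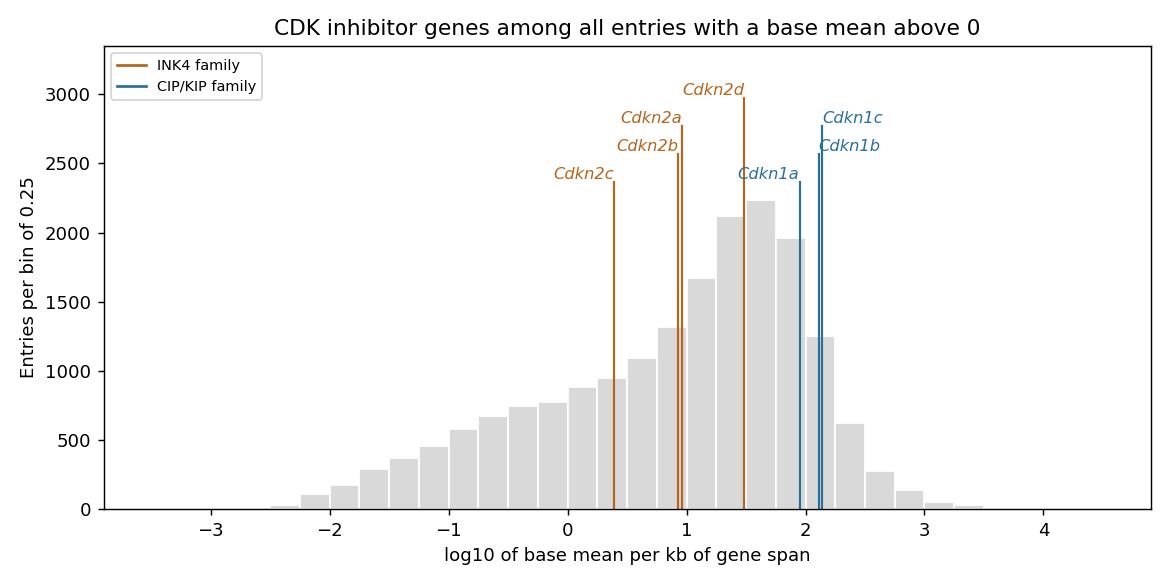
Histogram of the log10 base mean per kb of gene span over the 18871 entries above 0 with an annotated length, in bins of 0.25, with a line at each of the 7 genes (INK4 brown, CIP/KIP blue). *Cdkn2a*, *Cdkn2b* and *Cdkn2c* fall to the left of the peak, and the CIP/KIP genes lie together on its right flank at percentiles 85.4 to 91.6.

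The promoters of the members differ in CpG content. CpG islands are the sites to which KDM2B brings a variant PRC1 complex. The pairs of starts of *Cdkn2a* and *Cdkn1a* are shown because each start has its own entry in the table. The sequences end just before the start of the entry, which in ARF lies upstream of the RefSeq start and shortens the window, and run 5′ to 3′ in the sense of transcription, with each CpG in capitals (RefSeq promoters of GRCm38.p6, which shares its coordinates with mm10). They are chr4:89294654-89294869 (minus strand, ARF), chr4:89282193-89282442 (minus strand, INK4a), chr17:29090729-29090978 (plus strand, first *Cdkn1a* start) and chr17:29093519-29093768 (plus strand, second *Cdkn1a* start).

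ARF promoter: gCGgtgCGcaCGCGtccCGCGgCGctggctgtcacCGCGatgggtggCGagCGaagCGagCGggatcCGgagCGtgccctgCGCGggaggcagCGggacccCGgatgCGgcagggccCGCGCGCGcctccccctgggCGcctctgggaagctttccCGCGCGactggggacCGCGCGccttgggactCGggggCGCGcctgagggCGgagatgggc

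INK4a promoter: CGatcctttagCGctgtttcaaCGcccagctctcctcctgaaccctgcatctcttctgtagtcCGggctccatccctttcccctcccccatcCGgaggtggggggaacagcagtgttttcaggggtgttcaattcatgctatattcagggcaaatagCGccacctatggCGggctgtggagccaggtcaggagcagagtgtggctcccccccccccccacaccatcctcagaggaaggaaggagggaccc

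Cdkn1a first start: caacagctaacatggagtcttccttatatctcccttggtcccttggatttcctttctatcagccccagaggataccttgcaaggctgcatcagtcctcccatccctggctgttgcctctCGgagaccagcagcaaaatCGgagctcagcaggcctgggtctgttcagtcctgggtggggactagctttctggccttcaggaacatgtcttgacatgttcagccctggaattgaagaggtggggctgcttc

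Cdkn1a second start: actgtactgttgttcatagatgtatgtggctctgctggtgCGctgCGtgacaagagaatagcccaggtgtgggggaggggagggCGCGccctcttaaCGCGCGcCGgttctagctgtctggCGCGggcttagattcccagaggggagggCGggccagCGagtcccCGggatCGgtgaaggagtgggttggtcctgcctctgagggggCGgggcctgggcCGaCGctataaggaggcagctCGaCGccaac

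CpG content was measured over the 250 bases before each RefSeq start as the number of CpG observed over that expected from the C and G content. Over 32841 promoters its median is 0.374. The ARF promoter holds 40 CpG, a ratio of 1.08 at percentile 97.2, and the INK4a promoter holds 7, a ratio of 0.316 at percentile 44.4. In *Cdkn1a* the first start has 2 CpG, a ratio of 0.110 at percentile 16.3, and the second start has 19, a ratio of 0.771 at percentile 78.7. The median number of CpG over all promoters is 6, so the INK4a promoter is near the middle and the first *Cdkn1a* start is below it. In each gene the starts differ in CpG content, the richer one lying upstream in *Cdkn2a* and downstream in *Cdkn1a*.

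*Cdkn1b* has a ratio of 1.08 at percentile 97.4, close to that of ARF, with 28 CpG against 40. Its level is 14.2 times that of *Cdkn2a* per kb of span, 3.61 times on the base mean and 1.35 times per kb of exons. A link between CpG content and level was not tested. *Cdkn2b* has a ratio of 0.670 and *Cdkn2d* of 0.646. *Cdkn2c* has 0.525 at the start of its entry and 0.782 at a start upstream, to which no entry was matched. In all, 7 of the 9 promoters, which belong to 6 of the members, exceed the median of all promoters, and *Cdkn1c* was not matched to a promoter sequence.

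**Figure D4:**
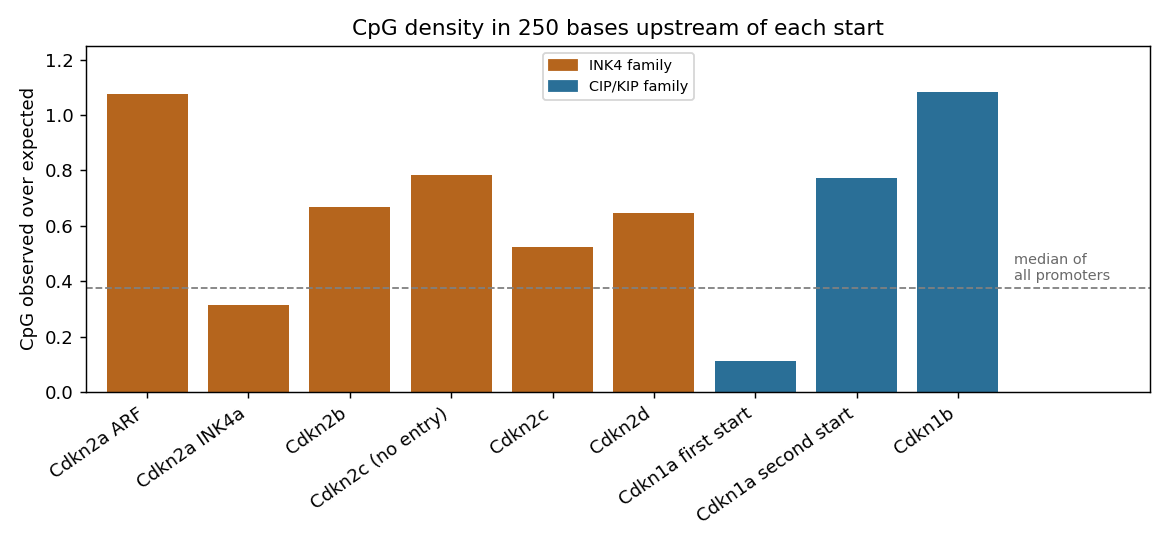
CpG observed over expected in the 250 bases upstream of each RefSeq start of the members, as bars from 0 (INK4 brown, CIP/KIP blue), with the median of 32841 promoters as a dashed line. ARF and *Cdkn1b* reach 1.08, and only the INK4a promoter and the first *Cdkn1a* start lie under the median of 0.374.

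Short motifs were searched on both strands of the same windows. The TATA motif TATAAA occurs in 0 of the 9 promoters and in 12.4% of all promoters. The E2F motifs TTTCCCGC, TTTCGCGC, TTTGGCGC and TTTGCCGC, whose reverse complements were included and none of which contains another motif searched, occur in 1 of the 9 promoters and in 1.86% of all. The match is TTTCCCGC in the ARF promoter, with its first base 99 bases upstream of the RefSeq start. Paired CATG cores of the p53 half-site, with any 6 bases between them, occur in 1 of the 9 promoters and in 0.490% of all, and the match begins 48 bases upstream of the first *Cdkn1a* start. This motif was chosen after the *Cdkn1a* sequence had been seen. A match is a description of the letters and does not show binding.

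The surroundings of the members differ in level. *Mtap*, a methionine salvage gene on the other strand 93460 bp beyond the *Cdkn2a* end, has 40.0 normalised counts per kb of span, 4.40 times *Cdkn2a*, and *Dmrta1*, the next gene of the table beyond *Cdkn2b* at 377159 bp, has 0.907. *Faf1*, 11216 bp upstream of *Cdkn2c* on the other strand, has 49.1, 19.9 times *Cdkn2c*. *Kri1*, only 441 bp beyond the end of *Cdkn2d* on the same strand, has 47.3, and *Ap1m2*, 3305 bp upstream of *Cdkn2d*, has 21.1. On its other side *Cdkn2c* has *4930522H14Rik*, which is listed at 0. Per kb of span *Cdkn2a*, *Cdkn2c* and *Cdkn2d* thus each lie between the levels of their neighbours, and *Cdkn2b* lies between *Cdkn2a* and *Dmrta1*. On the base mean *Cdkn2d* (88.8) instead lies below both *Kri1* (686.0) and *Ap1m2* (374.7).

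The CIP/KIP genes exceed their neighbours per kb of span. On the base mean they do so as well, except that *Kcnq1* (382.0) lies above *Cdkn1c* (367.9). *Trp53cor1*, the long non-coding RNA known as lincRNA-p21, lies 11800 bp upstream of *Cdkn1a* on the other strand and has 9.74 normalised counts per kb of span, 0.109 times *Cdkn1a*. *Rab44* on the far side has 0.365. *Lockd*, a long non-coding RNA 3642 bp downstream of *Cdkn1b* on the same strand, has 8.47, 0.0657 times *Cdkn1b*, and *2810454H06Rik*, 19293 bp upstream, has 26.3. Around *Cdkn1c*, *Slc22a18* (12740 bp) has 7.76 and the potassium channel gene *Kcnq1* (31297 bp) has 1.19, both of them in the same imprinted region. *Cdkn1c* and *Cdkn1a* are each overlapped by 1 annotated gene on the opposite strand, *Gm44732* and *AC167363.2*. The library kit keeps strand, but whether the counting used it is not given in the sources used here, so antisense reads in these levels cannot be told apart.

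A cell cycle list of 46 genes was grouped by role. It includes 7 PRC1 and PRC2 subunits tied to *Cdkn2a* in the literature. In all, 44 of the 46 were matched to an entry, *Cdk6* and *Mdm4* not being matched. Of the 44, 40 lie above the median of all entries per kb of span, with a median percentile of 83.4. The list was chosen with earlier results of these data known, and no test was made of it.

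*Cdk4*, the main target of INK4 proteins, has 698.5 normalised counts per kb of span, at percentile 98.9. *Cdk2* has 138.4, *Cdk1* 220.3 and *Cdk7*, the kinase that activates them, 87.8. Of the D-type cyclins that partner CDK4, *Ccnd1* has 113.1, *Ccnd3* 18.9 and *Ccnd2* 7.71, at percentiles 89.1, 54.7 and 41.3. Of the cyclins of later phases, *Ccne1* has 255.6, *Ccne2* 81.5, *Ccna2* 452.0, *Ccnb1* 518.6 and *Ccnb2* 140.6, while *Ccna1*, the germline cyclin A, has 3.85. Of the 9 cyclins, 7 exceed the median of all entries, and *Ccnd2* and *Ccna1* do not. *Cdkn2d*, at 30.6, lies above *Ccnd3*, *Ccnd2* and *Ccna1* on this scale. On the base mean *Cdkn2d* (88.8) lies above *Ccna1* (36.8) but below *Ccnd2* (199.6) and *Ccnd3* (1791). Per kb of exons *Cdkn2d* (62.4) lies above *Ccnd2* (31.5) and *Ccna1* (23.5) but below *Ccnd3* (847.4). The levels of INK4 genes and cyclins thus overlap on each scale, but the place of *Cdkn2d* depends on the length used.

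All 11 pocket protein and E2F genes lie above the median on each scale. *Rb1* lies at percentile 54.6 per kb of span, 86.1 on the base mean and 78.8 per kb of exons. In normalised counts per kb of span *Rb1* has 18.8, *Rbl1* 22.7, *Rbl2* 18.6 and *E2f4*, the highest, 193.6. The 5 genes for phosphatases and kinases that set the inhibitory phosphorylation of CDKs span 35.4 (*Cdc25b*) to 103.5 (*Wee1*). Of the 5 genes for turnover of the inhibitors, *Skp2* has 39.3, *Cks1b* 288.1 and *Dtl*, which targets p21 for degradation, 213.7. Downstream of ARF, *Mdm2* has 252.5, *Trp53* 277.7 and *Npm1*, whose protein binds ARF in the nucleolus, 1200. The ARF entry itself has 9.08.

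Among the Polycomb genes of the list, 5 of 7 lie above the median per kb of span, and 4 of 7 on the base mean and per kb of exons, where *Ring1* is below it. *Suz12* of PRC2 has 320.7 normalised counts per kb of span, *Ezh2* 94.6, *Cbx7* 180.3 and *Rnf2*, which encodes RING1B, 79.0. *Ring1* has 48.8. *Bmi1*, the PRC1 gene best known for holding *Cdkn2a* silent, has 9.10, at percentile 43.6, and *Cbx8* has 0.982, at percentile 22.2. *Rybp* has 237.3, at percentile 95.8, in the mean over UNT and OHT libraries, and *Yaf2* has 0.0617, at percentile 5.57.

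**Figure D5:**
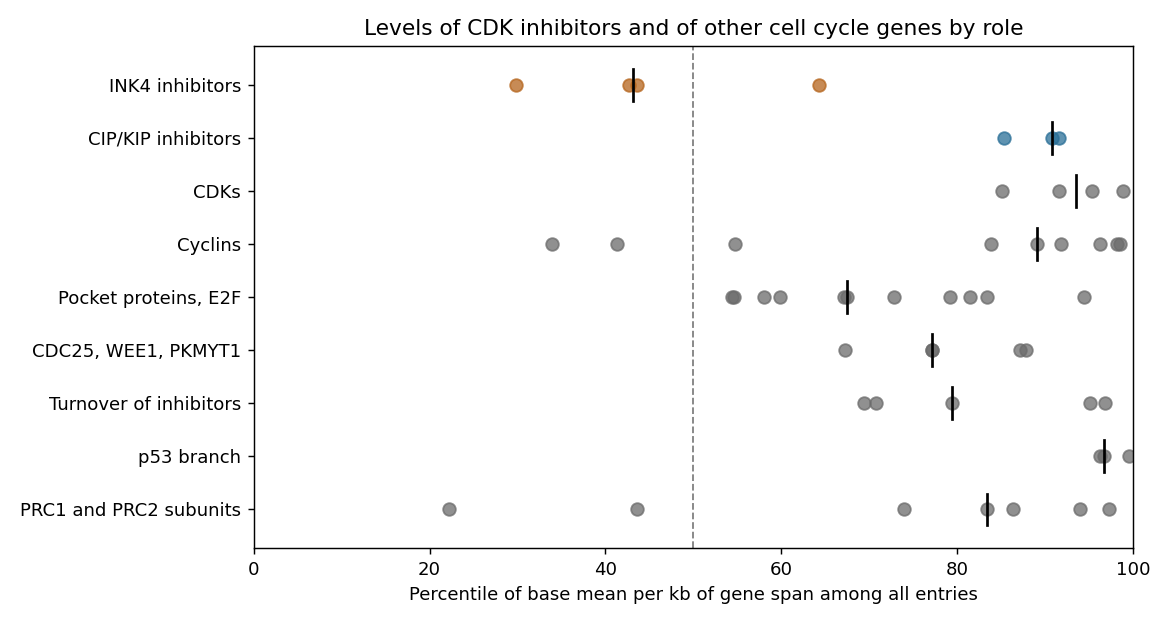
Percentile of the base mean per kb of gene span for the INK4 genes (brown), the CIP/KIP genes (blue) and 44 listed genes (grey). The 44 are those of the cell cycle list, its 7 PRC1 and PRC2 subunits included. There is 1 row per role, with a point per gene and a black bar at the median of each row. A dashed line marks the middle of all entries. The INK4 row lies mostly left of the dashed line, and the CIP/KIP row, at 85.4 to 91.6, lies among the kinases and cyclins. On the base mean, which is not drawn, the CIP/KIP genes (percentiles 52.8 to 65.9) lie below the lowest kinase (percentile 70.2).

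The labelled cell type was checked against its markers. Of 10 ES cell markers, 9 were matched to an entry and all 9 lie above the median per kb of span, from percentile 80.1 to 99.7. By contrast, above the median were 2 of 6 fibroblast markers, 0 of 5 primitive endoderm markers, 1 of 4 trophoblast markers and 1 of 3 neural progenitor markers. The highest of these were *Tfap2c* at percentile 90.4 and *Nes* at percentile 84.0, and the lowest were *Postn* at percentile 4.40 and *Elf5* at percentile 9.07. On the base mean 1 fibroblast marker was above the median, and per kb of exons 0 were. On both of those scales 1 primitive endoderm marker, *Dab2*, was above it, and the other counts did not change. *Pdgfra* is counted among both the fibroblast and the primitive endoderm markers. In a bulk mean, a level in few cells and a low level in all cells cannot be told apart, and this holds for *Cdkn2a*, *Cdkn2b* and *Cdkn2c*.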

How the data were processed

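Nuclear RNA was sequenced from 3 UNT and 3 OHT libraries as 40 bp paired-end reads. The authors removed rRNA fragments (bowtie2), mapped the remainder to mm10 by STAR, and gave reads that STAR left unmapped to bowtie2 so as to gain intronic reads. The authors counted reads with their own script over RefSeq genes chosen for mappability, size and unique ends, and used DESeq2. Tool versions are not given in the sources used here. The deposited base mean is a signal: counts normalised for library size by the authors and averaged across the 6 libraries. The remaining 6 numeric or flag columns hold the authors' own comparison of OHT with UNT (log2 fold change, its standard error, statistic, p-value, adjusted p-value and a threshold flag) and were not used, so no test was made. Depth per library and replicate spread are unknown.

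Symbols came from RefSeq genes of GRCm38.p6 for 20450 of 20633 entries and, with GENCODE vM21 added, for 20560, and 20261 were matched to a GENCODE transcript, which gave span and exon length. Base means were divided by these lengths. A percentile is the percentage of entries with a lower value, with ties at their midpoint. Named genes are the members, the cell cycle list, the nearest genes in the table, overlapping genes, *Rybp* and *Yaf2*, and markers of other cell types were named after their values were seen. The members and lists were chosen with earlier results of these data known. The ranking and CpG steps were tested on simulated data. The alternatives were base mean without length, length of exons, ranking among all entries, among those with a base mean of at least 10 or among 1 entry per gene, and the lowest entry per gene. Python 3.11.15, numpy 2.4.6, pandas 2.3.3, scipy 1.17.1 and matplotlib 3.10.9 were used.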

Additional observations from a re-analysis of the deposited data

How the results depend on the processing

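No paired analysis was possible because the base mean is 1 value per entry over all libraries. Leaving out a replicate and tests on counts could not be run for the same reason. Between 3 and 4 members lay above the median under the 6 alternatives, with *Cdkn1a*, *Cdkn1b* and *Cdkn1c* among them each time. *Cdkn2d* was under it on the base mean and per kb of exons, and *Cdkn2a* was above it per kb of exons. Of the 21 pairs of members, 17 kept their order on the base mean, 16 per kb of exons and 21 with the lowest entry per gene. Of the 44 genes of the cell cycle list, 40 lay above the median per kb of span. On the base mean and per kb of exons 39 did. With a minimum base mean of 10, which removes *Cbx8*, 36 did, and the count was not recomputed under the other alternatives. The percentile of *Cdkn2a* ranged from 31.1 to 59.4 and that of *Cdkn2d* from 35.2 to 66.7. That of *Cdkn1b* ranged from 62.9 to 91.4 and that of *Cdkn1c* from 52.8 to 92.2. Of 42 recomputed percentiles, 29 moved outside the exact binomial 95% interval of the value reported. That interval treats the ranked entries as a sample and holds no spread between libraries, so the count does not measure uncertainty from replicates.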
